A study of Mus musculus with 9 samples.

Results

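The BCL-2 family decides whether the outer membrane of mitochondria stays closed or is opened in apoptosis. To assess this family in osteocyte-like cells exposed to stimulated chondrocytes, 10 of its genes were followed of the 56748 genes in the count table. They were chosen by name and by textbook role. The rule used no measured value, but the choice was made with earlier results of these data known. Mcl1, Bcl2l1 and Bcl2 are pro-survival members, Bax, Bak1 and Bok are pore-forming effectors, and Bid, Bcl2l11, Bbc3 and Pmaip1 are BH3-only members. All 10 passed the filter on low counts, so none was left out of a test.

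The RNA came from MLO-Y4, an osteocyte-like mouse cell line, kept in a transwell with primary articular chondrocytes of C57BL/6J mice. In the control group the chondrocytes were unstimulated, and in the other groups they had received 10 ng/mL of the cytokine IL-1β for 6 h before a co-culture of 24 h or 48 h. Each group holds 3 libraries, 9 in all. The culture time of the control group is not given in the labels, so stimulation and time cannot be told apart in a comparison with control. The labels name the line of the 48 h samples MLO-Y5, MLO-Y6 and MLO-Y7, whereas the protocols name MLO-Y4. They do not say whether replicates were separate cultures, so the p-values measure only the spread between these libraries. The groups are models built on a single cell line, and no group without chondrocytes was analysed here.

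In this family, effector proteins oligomerise in the outer mitochondrial membrane and release cytochrome c, which starts the caspase cascade. Pro-survival proteins hold the effectors and the BH3-only proteins in check, and BH3-only proteins rise or are activated by stress and tip that balance. Much of this control acts on proteins, through binding, cleavage and turnover, which RNA counts do not measure. Osteocytes are long-lived cells buried in bone, and their apoptosis is known to accompany local bone remodeling.

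Library totals lay between 12250628 and 15956441 counts in the control group, 14440454 and 15558585 at 24 h, and 16458398 and 18515456 at 48 h. Of the osteocyte markers, 5 of 9 passed the filter. Their summed level was 1950 to 2143 CPM (counts relative to the scaled library total) in control, 2254 to 2287 at 24 h and 2871 to 2918 at 48 h, while the mature markers Sost, Mepe, Fgf23 and Dmp1 were at or near 0. Of the chondrocyte markers, 5 of 12 passed, at 1681 to 1717, 1566 to 1649 and 2128 to 2217 CPM, with Acan, Col9a1, Col9a2 and Cnmd at 0 and Col2a1 at no more than 7 counts. Of the macrophage markers, 2 of 8 passed, at 5.19 to 7.93, 3.94 to 5.60 and 6.34 to 7.73 CPM, with Adgre1, Itgam and Tyrobp at 0. The summed osteocyte and chondrocyte levels were higher at 48 h than in the other groups, carried mostly by Gja1 (1498 CPM in control and 2413 at 48 h) and Prg4 (1576 and 2047). Single markers went both ways at 48 h versus control, with 3 called higher and 2 lower (Cd44, Bglap) of the osteocyte list and 3 higher and 1 lower (Matn3) of the chondrocyte list. Their part in the results was not tested.

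After 48 h with stimulated chondrocytes, 7 of the 10 members differed from control. Of all genes tested, 22% were called higher and 24.4% lower in this comparison. All 3 effectors fell, as did Bcl2, Bcl2l1 and Bid, with changes between -26.9% and -41.1%, and Bcl2l11 rose by 51.5%. Mcl1, the most abundant member, did not pass the test in any comparison. At 24 h only Bok passed the test. A gene was called different where its adjusted p in the edgeR quasi-likelihood test over all 13812 genes tested was under 0.05.

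At 48 h versus control, 6 of 10 members were called lower, where 24.4% of all genes tested were, and 1 of 10 was called higher, where 22% were. The libraries of both groups did not overlap for 8 members, beside 53.1% of all genes. For the shorter co-culture against control, 1 of 10 members was called lower beside 2.9% of all genes, and 0 were called higher beside 3.25%. At an unadjusted p under 0.05, 2 members were below control at 24 h (Bok and Bid) and 0 above, and DESeq2 called 0 higher as well. The 24 h and control libraries did not overlap for 2 members, beside 21.5% of all genes. Between 48 h and 24 h, 5 of 10 members were called lower beside 25.4% and 1 higher beside 23.7%, and 7 did not overlap beside 59.4%. The comparisons with control share the same 3 control libraries. The median size of change of the members at 48 h versus control was 0.50 on the log2 scale, beside 0.25 over all genes. It was 0.14 beside 0.11 for the shorter co-culture against control, and 0.30 beside 0.26 between the co-culture times.

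**Figure D1:**
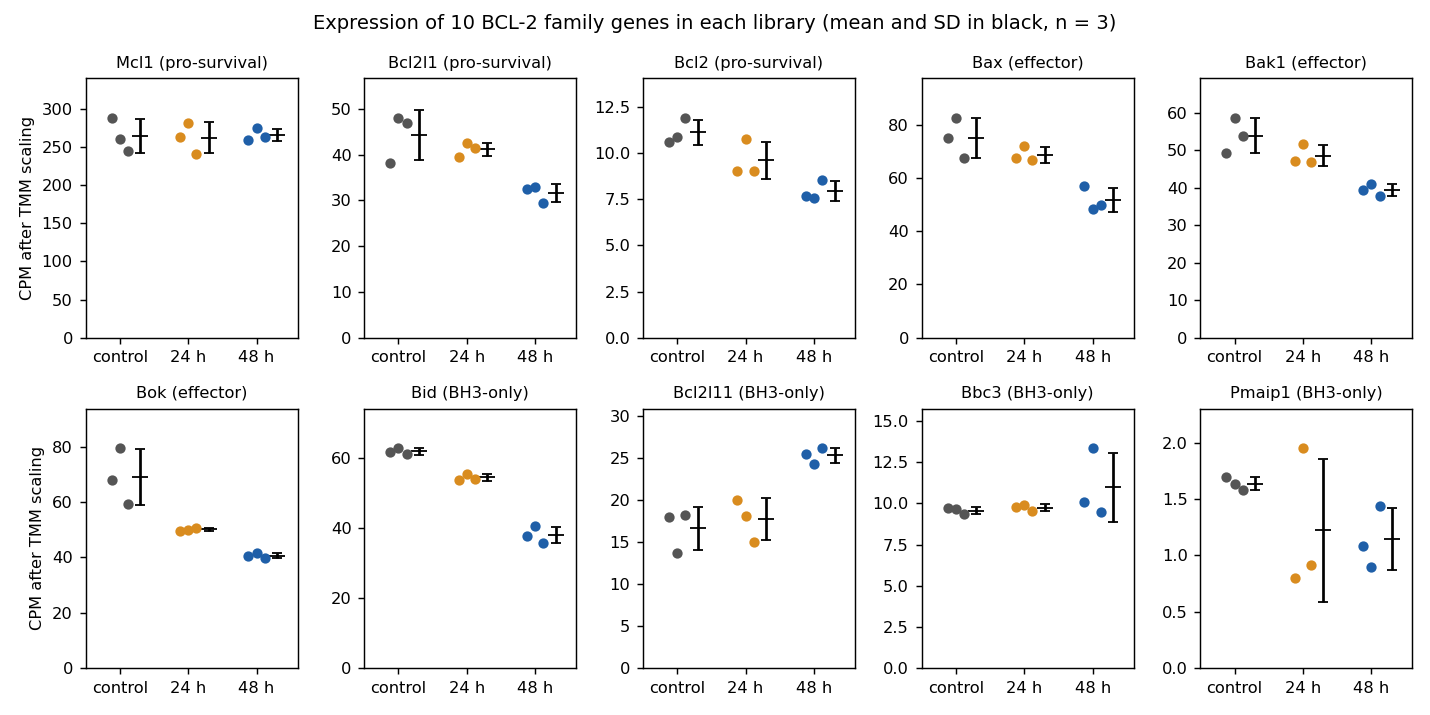
CPM after TMM scaling (vertical axis, from 0, a separate scale for each gene) of the 10 members in the 3 control, 3 24 h and 3 48 h libraries, each point 1 library, with the mean and SD in black. All 48 h points lie below all control points for Bax, Bak1, Bok, Bid, Bcl2, Bcl2l1 and Pmaip1 and above them for Bcl2l11, whereas Mcl1 and Bbc3 overlap.

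Levels of different genes were compared per length, as RPKM (CPM per kilobase of the gene length in the deposited table). Mcl1 stood highest in each group, with 77.2 ± 6.43 RPKM in control (SD, n = 3), and Pmaip1 lowest with 0.599 ± 0.0211. In control the order was Mcl1, Bax (47.6 RPKM), Bok (37.4), Bak1 (22.4), Bid (17.5), Bcl2l1 (9.67), Bbc3 (4.51), Bcl2l11 (2.07), Bcl2 (1.22) and Pmaip1. The same order held at 24 h and at 48 h. Of the 27 pairs of neighbours in the 3 groups, 1 pair had overlapping libraries, Bax and Bok in control. Averaged over all libraries, the RPKM of Mcl1 exceeded that of 95.8% of the genes tested, and that of Bcl2 exceeded 17.3%.

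Among the pro-survival members, Bcl2l1 and Bcl2 fell at 48 h and Mcl1 did not pass the test. Mcl1 (ENSMUSG00000038612, chr3:95566099-95570487, GRCm39) encodes a short-lived protein that holds BAK and several BH3-only proteins. Its level was 287.7, 259.6 and 244.4 CPM in the control libraries, 263.4, 281.2 and 240.4 at 24 h, and 258.8, 275.0 and 262.5 at 48 h. The ranges of the 3 groups overlapped throughout. Its log2 fold change at 48 h versus control was 0.0075 (SE 0.0631, 95% interval -0.13 to 0.14, adjusted p = 0.936, edgeR). For 24 h it was -0.013 (interval -0.15 to 0.12, adjusted p = 0.949, edgeR). Without control replicate 3 or 48 h replicate 2 the 48 h value turned to -0.032 or -0.019, and without control replicate 1 or 24 h replicate 3 the 24 h value turned to 0.058 or 0.049. The test does not show that Mcl1 was equal in the groups, and the intervals, on 3175 to 4917 counts per library, bound the differences that remain possible.

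Bcl2l1 (ENSMUSG00000007659, chr2:152622588-152673648) encodes BCL-XL, which restrains BAX and BAK. It was at 38.1, 48.0 and 46.9 CPM in control, 39.6, 42.5 and 41.5 at 24 h, and 32.4, 33.0 and 29.4 at 48 h. All 3 libraries at 48 h lay below every other library, while control and 24 h overlapped. Bcl2l1 fell by 0.48 on the log2 scale at 48 h versus control (SE 0.0836, adjusted p = 0.00011, edgeR) and by 0.38 at 48 h versus 24 h (adjusted p = 0.000895, edgeR). The shorter co-culture differed from control by -0.10 (log2, interval -0.28 to 0.073, adjusted p = 0.571, edgeR). The gene gives rise to splice forms of opposite function, and counts per gene do not separate them.

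Bcl2 (ENSMUSG00000057329, chr1:106465908-106642004), the founding pro-survival member, was low in these cells. It was at 10.6, 10.9 and 11.9 CPM in control, 9.01, 10.7 and 9.03 at 24 h, and 7.66, 7.55 and 8.54 at 48 h, on 126 to 169 counts per library. The 48 h libraries were again the lowest, and one 24 h library reached the control range. Bcl2 fell by 0.49 on the log2 scale at 48 h versus control (SE 0.119, adjusted p = 0.00253, edgeR). The steps between were smaller than the test could call, with -0.21 for the shorter co-culture against control (adjusted p = 0.367) and -0.28 from 24 h to 48 h (adjusted p = 0.0646, edgeR).

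The 3 pore-forming effectors fell together at 48 h, and each also fell between 24 h and 48 h. Bax (ENSMUSG00000003873, chr7:45111121-45116322) encodes an effector that moves from the cytosol to mitochondria. Its level was 75.0, 82.6 and 67.6 CPM in control, 67.4, 72.2 and 66.7 at 24 h, and 57.1, 48.5 and 49.8 at 48 h. Control and 24 h overlapped, and 48 h lay below both. Bax fell by 0.53 on the log2 scale at 48 h versus control (SE 0.0765, adjusted p = 1.47e-05, edgeR) and by 0.41 at 48 h versus 24 h (adjusted p = 0.000214, edgeR). The 24 h value against control was -0.12 (log2, adjusted p = 0.417, edgeR).

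Bak1 (ENSMUSG00000057789, chr17:27238784-27247983) encodes BAK, an effector resident on mitochondria. It was at 49.3, 58.6 and 53.9 CPM in control, 47.2, 51.8 and 46.9 at 24 h, and 39.4, 40.9 and 37.8 at 48 h. As for Bax, only the 48 h libraries stood apart. Bak1 fell by 0.45 on the log2 scale at 48 h versus control (SE 0.0722, adjusted p = 4.85e-05, edgeR) and by 0.31 at 48 h versus 24 h (adjusted p = 0.00182, edgeR). The 24 h value against control was -0.15 (log2, adjusted p = 0.285, edgeR). Bak1 overlaps Ggnbp1 on the other strand, which had a mean of 21 counts beside 718.3 for Bak1.

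Bok (ENSMUSG00000026278, chr1:93613382-93623486) encodes a relative of BAX and BAK that can form pores with less dependence on BH3-only proteins. It was at 68.1, 79.4 and 59.2 CPM in control, 49.6, 49.9 and 50.6 at 24 h, and 40.5, 41.5 and 39.7 at 48 h. The 3 groups did not overlap, and the control libraries spread more widely than the others. Bok fell by 0.46 on the log2 scale at 24 h versus control (SE 0.081, adjusted p = 0.00115, edgeR), the only member called at that time. It fell by 0.76 at 48 h versus control (SE 0.0813, adjusted p = 4.18e-07, edgeR), the largest change among the members, and by 0.30 at 48 h versus 24 h (adjusted p = 0.00528, edgeR).

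The 4 BH3-only members did not move together. Bid fell, Bcl2l11 rose, and Bbc3 and Pmaip1 did not pass the test in any comparison. Bid (ENSMUSG00000004446, chr6:120868891-120893814) links death receptors to mitochondria, since caspase-8 cleaves its product into the active form. It was at 61.9, 62.9 and 61.1 CPM in control, 53.9, 55.6 and 54.0 at 24 h, and 37.8, 40.5 and 35.7 at 48 h. The groups did not overlap and control varied little. Bid fell by 0.71 on the log2 scale at 48 h versus control (SE 0.0623, adjusted p = 3.73e-08, edgeR) and by 0.52 at 48 h versus 24 h (adjusted p = 1.58e-06, edgeR). The shorter co-culture differed from control by -0.18 (log2, SE 0.0613, adjusted p = 0.0881, edgeR). The last 913 bases of Bid overlap Bcl2l13 on the other strand, a relative with a mean of 1768 counts beside 777.9 for Bid. Counting by strand is not stated for these files, so reads of this stretch may belong to either gene. Bcl2l13 itself did not pass the test at 48 h versus control (log2 -0.11), but from 24 h to 48 h it fell by 0.22 (adjusted p = 0.00348, edgeR), in the same direction as Bid. At 24 h versus control its log2 value was 0.11 (adjusted p = 0.302, edgeR), the opposite direction to Bid. All 24 h libraries lay above control for Bcl2l13 and below control for Bid.

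Bcl2l11 (ENSMUSG00000027381, chr2:127967958-128004467) encodes BIM, which binds all pro-survival proteins and is induced by withdrawal of growth factors and other stress. It was at 18.0, 13.7 and 18.2 CPM in control, 20.0, 18.1 and 15.0 at 24 h, and 25.4, 24.3 and 26.2 at 48 h. The 48 h libraries lay above all others, while control and 24 h overlapped. Bcl2l11 rose by 0.60 on the log2 scale at 48 h versus control (SE 0.111, interval 0.37 to 0.83, adjusted p = 0.000227, edgeR) and by 0.51 at 48 h versus 24 h (adjusted p = 0.000749, edgeR). After 24 h the log2 difference from control was 0.087 (adjusted p = 0.763, edgeR), and it turned to -0.026 without control replicate 2 and to -0.0068 without 24 h replicate 1. In bulk RNA a change in a share of the cells and a change in RNA per cell cannot be told apart.

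Bbc3 encodes PUMA, a p53 target that binds all pro-survival proteins. It (ENSMUSG00000002083, chr7:16042318-16052130) was at 9.73, 9.65 and 9.33 CPM in control, 9.81, 9.90 and 9.53 at 24 h, and 10.1, 13.4 and 9.50 at 48 h. At 48 h, replicate 1 lay slightly above every control and 24 h library, and replicate 2 lay above all the rest. The log2 fold change of Bbc3 was 0.19 at 48 h versus control (interval -0.078 to 0.46, adjusted p = 0.236, edgeR) and 0.030 without 48 h replicate 2. Pmaip1 (ENSMUSG00000024521, chr18:66591604-66598636) encodes NOXA, which mainly binds MCL1. It had only 12 to 30 counts per library, with 1.70, 1.64 and 1.58 CPM in control, 0.801, 1.95 and 0.917 at 24 h, and 1.09, 0.899 and 1.44 at 48 h. Its 48 h libraries lay below control, but the log2 fold change of -0.51 had an interval of -1.22 to 0.20 (adjusted p = 0.235, edgeR), so a change of that size was not detectable at this depth.

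**Figure D2:**
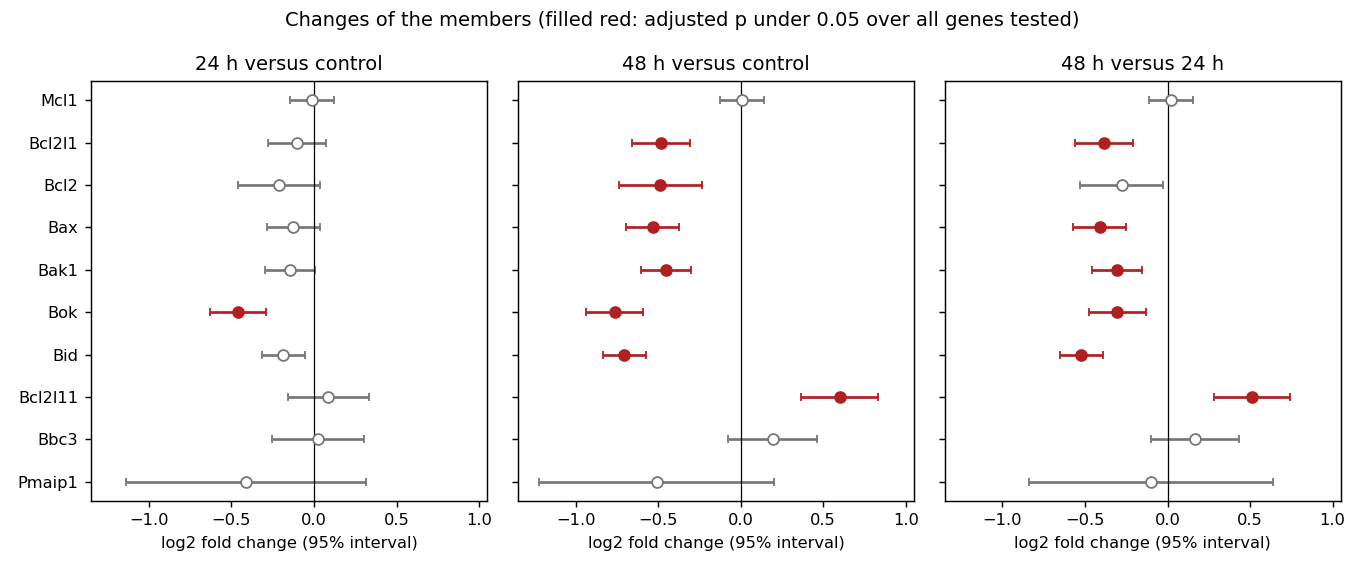
Log2 fold changes of the 10 members (horizontal axis) with 95% intervals in 3 comparisons, with filled red points for an adjusted p under 0.05 over all genes tested. Only Bok is filled at 24 h versus control. In the 48 h panel against control 6 members are filled below 0 and Bcl2l11 above, and the point of Mcl1 lies at 0.0075.

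Bcl2l11 was the member that rose, and the bases before its start are shown with the motifs searched there. A window of 250 bases before the gene start in the deposited table was read for each member from the GRCm39 genome. The GENCODE annotation has the same start for Bcl2l11. For Bid, on the minus strand, it places the start at 120894171 rather than 120893814, so that window lies inside the GENCODE gene. The GENCODE starts of Bok, Mcl1 and Bcl2 also lie further upstream, and those of Bax and Bcl2l1 by a few bases. Parts of these windows therefore lie inside the GENCODE genes. The window of Bcl2l11 is chr2:127967708-127967957 on the plus strand. RefSeq lists the same 250 bases before a start of this gene and has a further start downstream. A long noncoding RNA on the other strand has an exon in this window. In capitals are the FOXO-type core TGTTTAC (here as its reverse complement GTAAACA) and the GC box GGGCGG, both searched on both strands.
Bcl2l11: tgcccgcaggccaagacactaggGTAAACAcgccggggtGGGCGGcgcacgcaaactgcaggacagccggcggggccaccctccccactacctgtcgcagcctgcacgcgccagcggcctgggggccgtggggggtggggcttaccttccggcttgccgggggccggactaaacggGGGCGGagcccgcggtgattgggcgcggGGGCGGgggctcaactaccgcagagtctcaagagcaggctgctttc
The window of Bcl2l11 held the FOXO-type core 1 time and the GC box 3 times, with 72% G and C beside a median of 57.6% over 13811 windows of tested genes. Over the members the G and C share ran from 46.4% (Bbc3) to 74.8% (Bcl2, which fell and held the GC box 7 times). The FOXO-type core was found in 2.34% of all windows, and among the members in Bcl2l11, which rose, and in Bak1, which fell. The GC box was in 50.8% of all windows and in 8 members. The E-box CACGTG was in 7.83% of windows and in Bax, and the motif TATAAA was in 7.52% and in no member. A match describes the letters only, not binding.

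RNA was then summed by role in each library, as a description with no test. The pro-survival sum was 88.1 ± 5.33 RPKM in control, 86.6 ± 6.18 at 24 h and 85.4 ± 2.68 at 48 h (SD, n = 3 each), and the groups overlapped. The effector sum was 107.5 ± 11.4, 91.0 ± 2.94 and 71.3 ± 2.97 RPKM. No library of one group reached the range of another. The BH3-only sum, mostly Bid, was 24.6 ± 0.225, 22.6 ± 0.685 and 19.4 ± 1.44 RPKM.

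The ratio of pro-survival to effector RNA was accordingly 0.825 ± 0.0838 in control, 0.951 ± 0.0444 at 24 h and 1.20 ± 0.0713 at 48 h. Single libraries ran from 0.731 to 0.892, from 0.900 to 0.982 and from 1.12 to 1.26, without overlap. The side of 1 on which these RPKM ratios fall depends on division by gene length. Before that division, Mcl1 was at a mean of 263.9 CPM in control and 265.4 at 48 h. Bax, Bak1 and Bok were at 75.04, 53.95 and 68.89 CPM in control and 51.79, 39.36 and 40.55 at 48 h. The effector sum was lower at 48 h, while Mcl1 stood at 77.65 RPKM there and 77.2 in control. A higher ratio at 48 h depended on including Mcl1. Without it, the ratio of Bcl2l1 and Bcl2 to the effectors was 0.102 ± 0.0146, 0.110 ± 0.00237 and 0.109 ± 0.00458, and the groups overlapped. At 24 h the log2 change of the full ratio from control was 0.21, with 0.12 without Mcl1 and 0.12 without control replicate 2, so 1 library carried much of that smaller step. Bcl2 to Bax, a ratio often quoted for this family, was 0.0258 ± 0.0040, 0.0240 ± 0.00143 and 0.0265 ± 0.00323. Mcl1 made up 35.1% of the summed RPKM of the members in control, 38.2% at 24 h and 44.1% at 48 h.

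**Figure D3:**
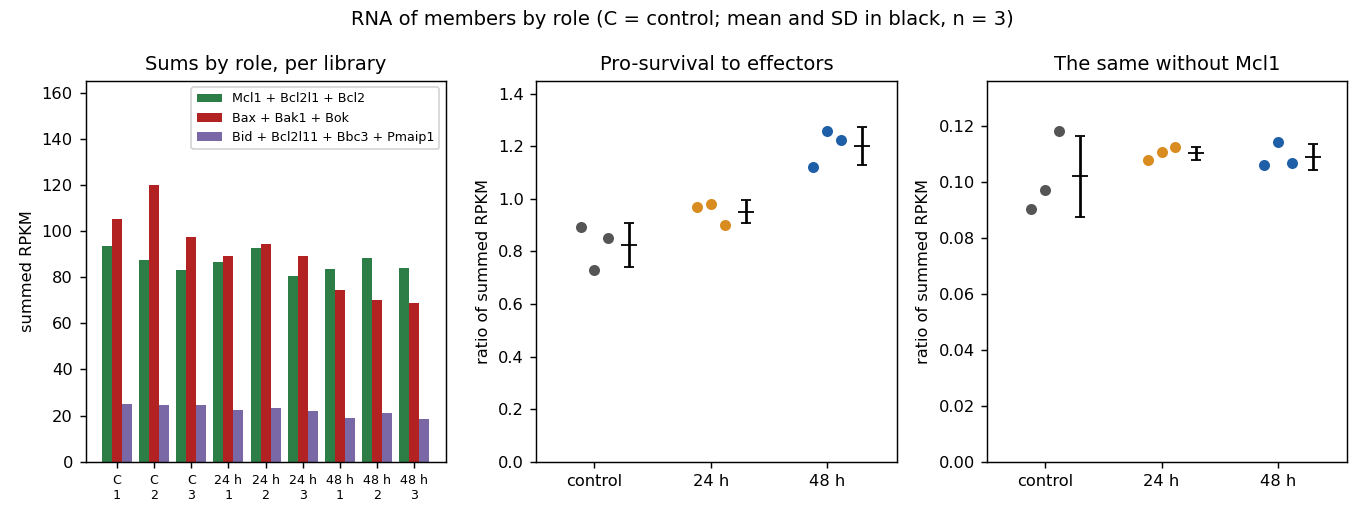
Left, RPKM summed by role in each library (bars from 0; C, control). Middle, the ratio of pro-survival to effector RPKM per library, with mean and SD in black, which was 0.825 in control, 0.951 at 24 h and 1.20 at 48 h. Right, the same ratio without Mcl1, where the groups overlap between 0.0902 and 0.118.

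Within the BH3-only members the composition also moved. The ratio of Bcl2l11 to Bid RPKM was 0.119 ± 0.0198 in control, 0.144 ± 0.0207 at 24 h and 0.296 ± 0.0292 at 48 h. The 48 h libraries, at 0.266 to 0.324, lay above those of both other groups, which overlapped. Bcl2l11 to Mcl1 was 0.0269 ± 0.00467, 0.0288 ± 0.00312 and 0.0406 ± 0.00259, so BIM RNA stayed a small fraction of MCL1 RNA in all groups.

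The lists that follow are read beside the share of all genes tested, of which 22% were called higher and 24.4% lower for 48 h against control, 3.25% and 2.9% for 24 h against control, and 23.7% and 25.4% between 24 h and 48 h. Other relatives of the family were followed from a list of 15 genes, of which 7 passed the filter. Against control, 3 were called higher and 0 lower at 48 h, also by DESeq2 and at an unadjusted p under 0.05, and the median log2 fold change was 0.099 beside -0.0022 over all genes. Bmf, a BH3-only gene tied to loss of anchorage, rose by 1.57 on the log2 scale (SE 0.144, 5.24 ± 0.698 CPM in control and 15.5 ± 1.81 at 48 h, adjusted p = 6.45e-08, edgeR). Bnip3 and Bnip3l, hypoxia-induced genes with roles in mitophagy, rose by 1.01 and 0.84. Both were already called at 24 h, by 0.62 and 0.22 (adjusted p = 8.37e-07 and 0.0182, edgeR). Bmf was not (log2 -0.17 at that time, adjusted p = 0.659, edgeR). Bcl2l2, Bcl2l12, Bcl2l13 and Bad did not pass in either comparison with control. Bcl2a1a, Bcl2a1b, Bcl2a1d and Hrk had 0 counts, and Bik and Bcl2l10 no more than 1 in any library.

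Downstream of the pores, 16 of 16 genes of the apoptosome, caspases and mitochondrial death factors were tested. Of these, 4 were called higher and 6 lower at 48 h versus control, with a median log2 fold change of 0.048. Cycs, which encodes the cytochrome c released through the pores, fell by 1.00, from 149.2 ± 9.29 to 74.7 ± 2.28 CPM (adjusted p = 1.14e-10, edgeR). Aifm1 fell by 0.50, while Casp6 and Casp9, an executioner and the initiator caspase of the apoptosome, rose by 0.49 and 0.45. In the 24 h comparison 0 were called in either direction by edgeR and by DESeq2, and 2 in each direction had an unadjusted p under 0.05.

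Of the inhibitor of apoptosis proteins, 8 of 9 were tested. There, 4 were called higher and 1 lower at 48 h versus control, with a median of 0.30. Among those called higher, Naip5 and Naip6 stood at only 1.67 and 1.63 CPM at 48 h, while Xiap, Birc2 and Birc6 were not called. These genes are named here after their values were seen. Naip2, a sensor protein of this family, rose by 1.09 and Birc3, a ubiquitin ligase induced by NF-kB, by 0.50. Birc5 (survivin), which also acts in cell division, fell by 0.72. After 24 h, 0 were called by edgeR or DESeq2, and 0 had an unadjusted p under 0.05.

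Bax, Bbc3 and Pmaip1 are known targets of p53, and 21 of 22 other genes of p53 and its targets were tested. The longer co-culture had 13 called lower and 4 higher against control, with a median of -0.30. Aen, a nuclease gene, fell by 0.97, whereas Gadd45a, Sesn1 and Fas rose by 1.21, 0.92 and 0.75. The shorter one had 1 called lower (Sesn1, which fell by 0.36) and 0 higher. DESeq2 called 1 lower and 0 higher, and 2 were lower and 3 higher at an unadjusted p under 0.05 in edgeR.

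Upstream regulators of BH3-only genes and stress kinases numbered 18, all tested. In the 48 h comparison 6 were called higher and 7 lower against control, with a median of 0.043. Chac1 and Atf4, genes of the integrated stress response, fell by 1.31 and 0.76, whereas the stress-induced Atf3 rose by 0.96 and the survival kinase Pim3 by 0.68. Already at 24 h, Foxo3 rose by 0.21 (adjusted p = 0.0349, edgeR) and Ddit3 fell by 0.31 (adjusted p = 0.0199, edgeR). The FOXO transcription factors, named here after their values were seen, went both ways at 48 h versus control, where Foxo3 and Foxo4 rose by 0.50 and 0.48 and Foxo1 fell by 0.26.

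Of the regulators of MCL1 protein turnover, 9 of 10 were tested, and at 48 h versus control 2 were called higher and 2 lower, with a median of 0.054. Usp13, a deubiquitinase known to stabilise MCL1, rose by 0.50, and Gsk3b, a kinase that marks MCL1 for degradation, by 0.16. Ube2k and Cul5 fell by 0.39 and 0.31. At 24 h, 0 were called by edgeR and by DESeq2, and 3 were higher and 0 lower at an unadjusted p under 0.05.

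Between 24 h and 48 h, where the control libraries play no part, 3 of the 7 other relatives were called higher and 1 lower, Bcl2l13, which fell by 0.22. Bmf rose by 1.74 on the log2 scale in this step (adjusted p = 1.59e-08, edgeR), against a value below 0 in the step before. Of the apoptosome, caspase and mitochondrial genes, 4 were called higher and 5 lower, and Cycs fell by 1.13. Of the inhibitor of apoptosis proteins 3 were called higher and 1 lower, of p53 and its targets 3 higher and 13 lower, of the upstream regulators 7 higher and 7 lower, and of the regulators of MCL1 turnover 1 higher and 4 lower. Their medians were 0.16, -0.29, 0.050 and -0.19 beside -0.0017 over all genes.

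**Figure D4:**
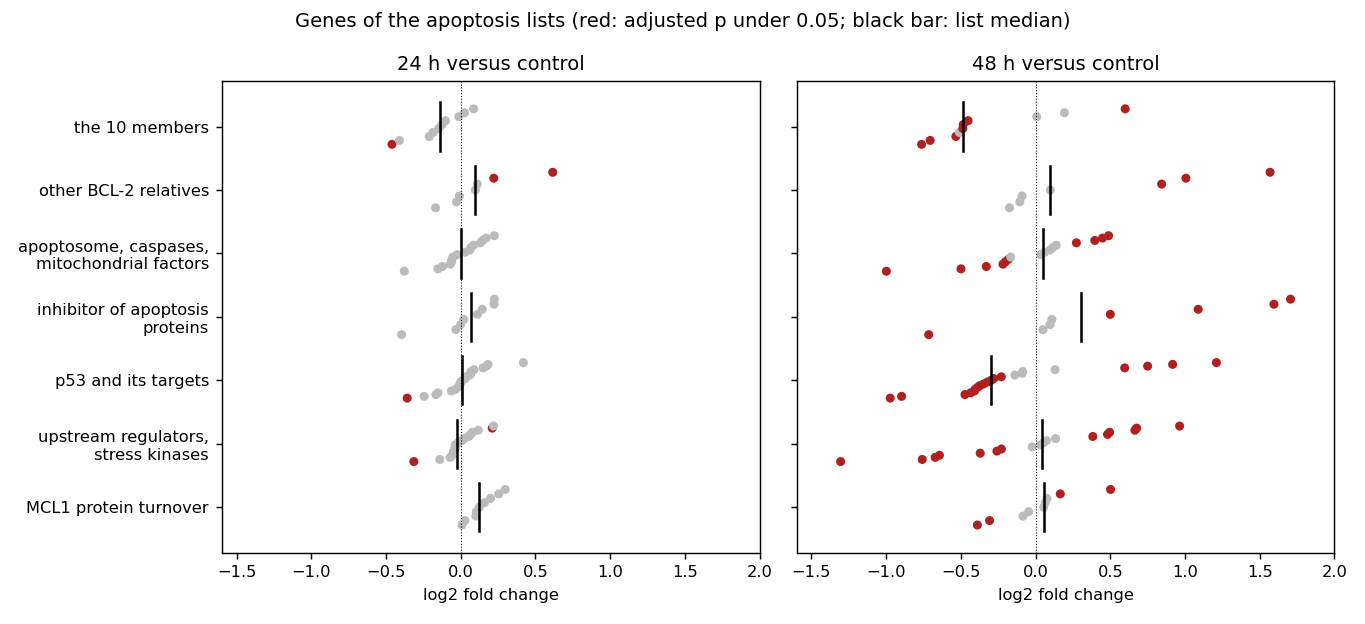
Log2 fold changes (horizontal axis) of the tested genes of each list at 24 h (left) and 48 h (right) versus control, each point 1 gene, red for an adjusted p under 0.05, with black bars for list medians. At 48 h versus control the effector, Bcl2, Bcl2l1 and Bid points of the members lie below 0, the list of p53 and its targets has 13 called lower and 4 higher, and the other lists hold called genes on both sides of 0, except the other BCL-2 relatives, with 3 higher.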

How the data were processed

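The deposited data were a single table of raw counts for the 9 libraries, with gene positions and lengths. The authors state that reads were aligned to GRCm39 with HISAT2 and counted with featureCounts. The sources differ on its version, name RSEM too, and do not state a strand setting, so counts of overlapping genes are uncertain. The deposited counts were not normalized.

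Sample labels gave the groups and replicate numbers. Counts were analysed with edgeR 4.0.16 in R 4.3.3. Genes passing filterByExpr (minimum count 10) were kept, 13812 in all holding 99.9% of the reads. TMM (trimmed mean of M values) factors scaled the library sizes. A single quasi-likelihood model of group, without other terms, was fitted to all 9, and Benjamini-Hochberg adjustment ran over all genes tested. Standard errors (SE) are the size of the log2 fold change over the root of F. No pair of replicates agreed within counting error (chi-square per degree of freedom 2.31 to 8.40). Intervals are at 95% and cover the spread between libraries.

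The members and lists were chosen with earlier results of these data known. All members are named, as are relatives that passed the filter. Of each other list and comparison, up to 4 called genes with the largest change and at least 5 CPM in a group could be named. Alternatives were DESeq2 1.42.0, its size factors, library size alone, no filter, only the libraries compared, a replicate block, an adjusted p under 0.01, and leaving out each library. The scripts were tested on simulated data. Gene sequence was read from the GRCm39 genome, and protein sequences were not used here.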

Additional observations from a re-analysis of the deposited data

Results flagged for a closer look

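The changes of 6 members from control differed between the 48 h and the 24 h co-cultures by the direct test of 48 h versus 24 h in edgeR, in which the shared control libraries cancel. The log2 fold changes between these times were -0.38 for Bcl2l1, -0.41 for Bax, -0.31 for Bak1, -0.30 for Bok, -0.52 for Bid and 0.51 for Bcl2l11, with adjusted p-values of 0.000895, 0.000214, 0.00182, 0.00528, 1.58e-06 and 0.000749. In each of these genes all 3 libraries at 48 h lay on the same side of all 3 at 24 h. Over all genes tested, 23.7% were called higher and 25.4% lower in this comparison and 59.4% did not overlap. With both directions together the count of members is near the share of all genes. By direction, 5 of 10 members were called lower and 1 of 10 higher. Groups of 3 are too small for a test of single outlying libraries.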

How the results depend on the processing

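The counts of members called higher and lower in the 3 comparisons had the same values under each alternative run. Of the values of single members under alternatives, 439 kept their direction and their side of the threshold and 11 changed sign, each in a comparison in which that member was not called. Mcl1 at 24 h versus control was 0.0025 with no filter on low counts. Leaving out single libraries gave Mcl1 log2 fold changes of -0.032 to 0.086 at 48 h versus control, -0.064 to 0.058 at 24 h versus control and -0.029 to 0.083 at 48 h versus 24 h, Bcl2l11 -0.026 to 0.19 at 24 h versus control, and Pmaip1 -0.33 to 0.43 at 48 h versus 24 h. The signs that turned between the co-culture times were those of Mcl1 (-0.029 without 24 h replicate 3, -0.0065 without 48 h replicate 2) and Pmaip1 (0.43 without 24 h replicate 2, 0.040 without 48 h replicate 2). Bok at 24 h versus control stayed between -0.55 and -0.35. The log2 change of the pro-survival to effector ratio at 48 h versus control was 0.55, and 0.10 without Mcl1, an alternative chosen after seeing the data. At 24 h versus control it was 0.21, 0.12 without Mcl1, and 0.12 to 0.27 with single libraries left out.

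Same-numbered libraries did not deviate together (correlations -0.049 to 0.078 over 9 pairs). With the replicate block, Bok at 24 h versus control was -0.46 (adjusted p = 0.000561, edgeR), and the block changed no call of a member.

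Over all genes, the calls at 24 h versus control moved with single libraries, from 449 higher and 400 lower to 873 and 602 without control replicate 3, to 295 higher without 24 h replicate 3 and to 222 lower without 24 h replicate 1. The cause was not tested. Depth limits Pmaip1 most, and 3 libraries a group limit small changes of all members.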
